A study of Mus musculus with 4 samples.

Results

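From the 52022 genes matched to deposited transcripts, including genes without counts, 38 were taken by symbol. The genes described here are these 38 genes of the extracellular matrix and of the fibroblasts that make it. They were followed in RNA-seq libraries of brown adipose tissue from male mice that were fed ad libitum and had received a 60% high fat diet for 12 weeks. KO libraries (KO 1 and KO 2, n = 2) came from mice labelled ATF4 BAT KO, which lack the transcription factor ATF4 in thermogenic adipocytes, and WT libraries (WT 1 and WT 2, n = 2) from their wild-type counterparts on the same diet. The sources used here do not give the age of the mice, the promoter that drove the deletion or whether each library is a separate animal, so the p-values reflect spread among 4 libraries that may be technical. The library names begin with S1 for WT 2 and KO 1 and with S2 for WT 1 and KO 2. What that prefix stands for is not given either. Because each prefix holds 1 library of each genotype, KO was also set against WT within each prefix.

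The matrix of brown fat has a fibrillar part between the cells and a basement membrane around each adipocyte and capillary. Fibrillar collagens are spun mainly by PDGFRA-positive fibroblasts, trimmed outside the cell, coated by small proteoglycans and tied together by lysyl oxidases. Type IV collagen, laminins and nidogen form the basement membrane and are also made by adipocytes, endothelial cells and mural cells. In obesity, fat tissue often gains collagen, and fibroblast number and fibroblast activity both set the level of these transcripts in whole tissue. In such bulk RNA fewer cells of a type and less RNA per cell cannot be told apart.

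The libraries held 25985367 (KO 1) to 34813870 (WT 2) estimated counts. Genes of mitochondrial DNA took 34.1% (WT 1), 33.9% (WT 2), 38.9% (KO 1) and 33.0% (KO 2) of the counts matched to genes. Levels are given as CPM (counts scaled to library size, with normalization between libraries), or as TPM, which also divides by transcript length, where genes are compared with each other. Atf4, the targeted gene, was at 29.2 CPM (WT 1), 107 (WT 2), 24.97 (KO 1) and 24.5 (KO 2). The genotypes did not overlap, but the library labelled WT 1 was close to KO, and by edgeR's quasi-likelihood test the log2 fold change was -1.46 (SE 0.57, adjusted p = 0.9998). Reads of other cell types can enter this value, and their part was not tested. The tissue label was met by brown adipocyte markers in every library, with Ucp1, the uncoupling protein of heat production, at 5563 CPM (WT 1), 6295 (WT 2), 7024 (KO 1) and 5989 (KO 2). Skeletal muscle markers differed with genotype: the 15 listed summed to 2.52 and 2.99 CPM in WT 1 and WT 2 and to 3098 and 2862 in KO 1 and KO 2, and 15 of 15 were higher in KO by the edgeR test. Muscle also carries fibroblasts and basement membranes, and its part in the matrix values was not tested.

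All 38 genes passed the filter on low counts, and none passed the genotype test. Most were lowest in KO 1, and WT 2 was most often the highest library, with WT 1 and KO 2 usually between them. Of the 38 genes, 30 had their lowest CPM in KO 1 and 23 their highest in WT 2, while 34.9% of all tested genes had their lowest CPM in KO 1 and 17.9% their highest in WT 2. Summed over the members, the level was 3949.9 CPM (WT 1), 4820.0 (WT 2), 3209 (KO 1) and 4199 (KO 2). By edgeR's quasi-likelihood test 0 of 38 members were higher and 0 lower in KO (adjusted p = 0.9998 for each member), with 0.767% of all 15643 tested genes called higher and 0.0128% called lower. DESeq2 and limma-voom also called 0. An unadjusted p under 0.05 was reached by 3 members, Col1a1, Col1a2 and Dpt, against 4.02% of all genes. The members' median log2 fold change was -0.35 (range -0.91 to 0.50) and 31 of 38 were negative, beside a median of 0.0020 over all tested genes.

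**Figure D1:**
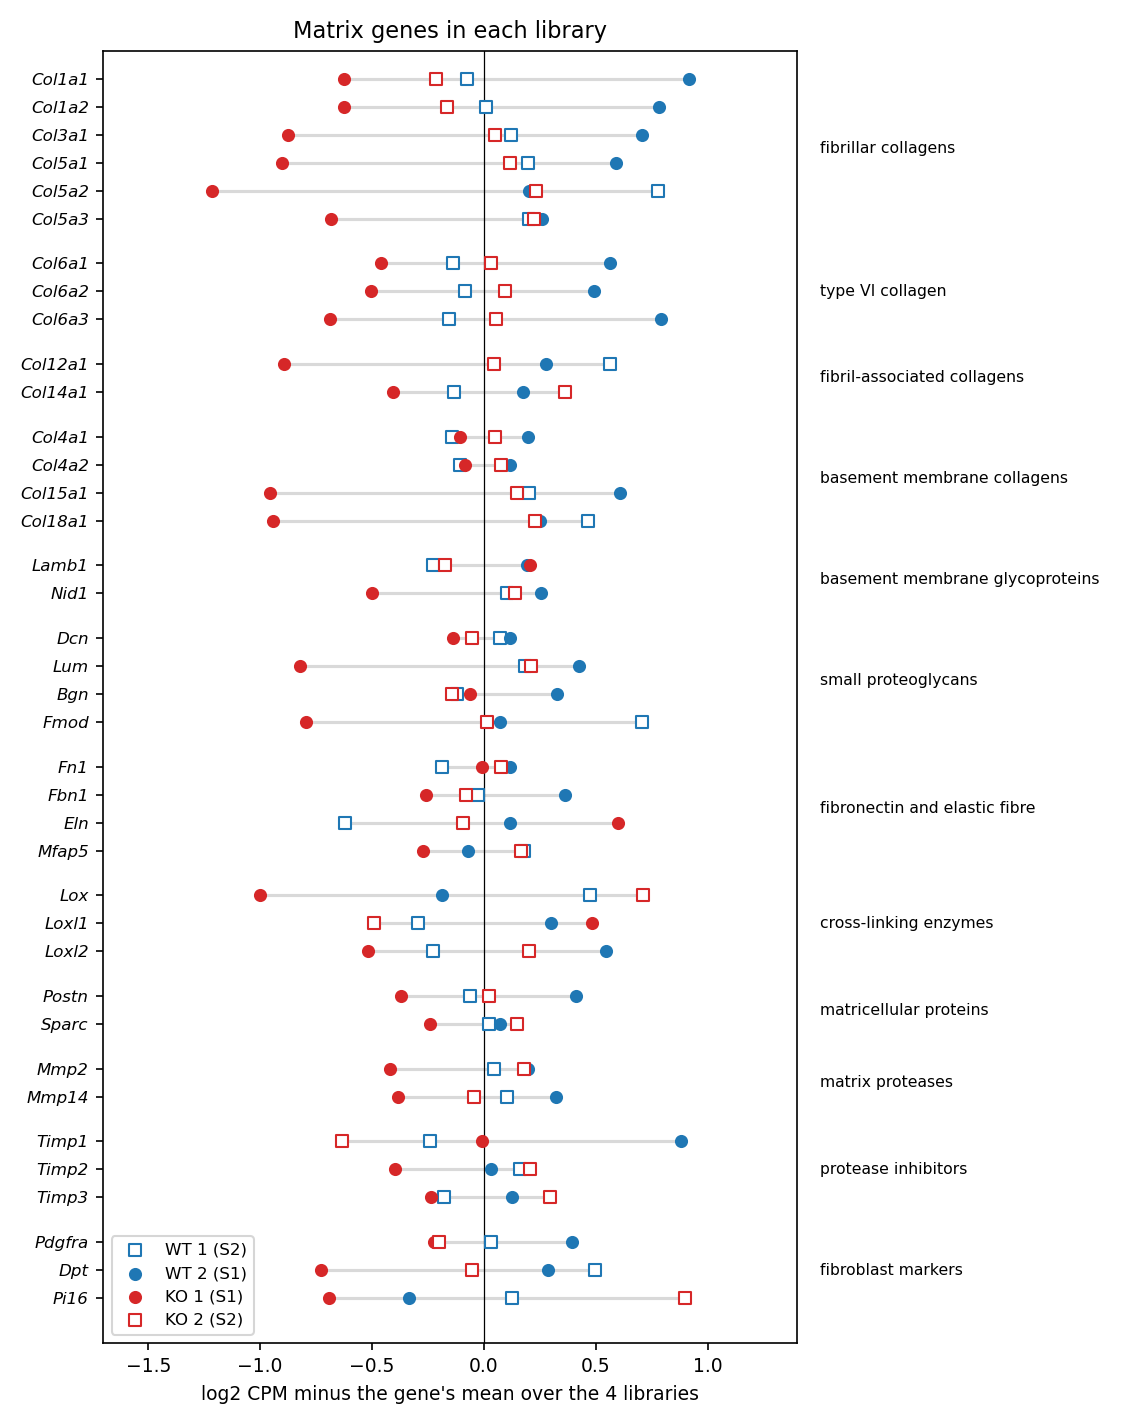
Each row is 1 matrix gene and each symbol 1 library, placed at its log2 CPM minus the gene's mean over the 4 libraries; blue is WT, red is KO, filled circles carry prefix S1 and open squares prefix S2. KO 1 is the lowest library for 30 of the 38 genes, and the open squares of WT 1 and KO 2 lie close together for most collagens.

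The 2 prefixes gave unlike pictures of the labelled genotype contrast. Atf4 itself differed by -2.09 on the log2 scale within S1 and by -0.25 within S2, so the prefixes were not equal looks at its loss. Within S1, 35 of 38 members were lower in KO 1 than in WT 2 (50.8% of all genes were), with a median log2 difference of -0.77. Within S2, 18 of 38 were lower in KO 2 than in WT 1 (50.3% of all genes), with a median of 0.02. A drop of more than 1 on the log2 scale occurred for 13 members within S1, against 3.86% of all genes, and for 0 within S2, against 2.53% of all genes. Of the members, 17 were lower in KO within both prefixes (26.5% of all genes), and Eln and Lamb1 were higher within both. With 1 library on each side these differences have no replicate check, and the difference between the prefixes could not be tested because the model has no residual degrees of freedom for it. The median log2 fold change was -0.15 without WT 2 and -0.16 without KO 1, against -0.46 without the library labelled WT 1 and -0.60 without KO 2. These 4 fits also called 0 members, where without WT 1, WT 2, KO 1 and KO 2 in turn 0.115%, 0.185%, 0.0511% and 0.0256% of all genes were called lower and 1.08%, 1.13%, 0.69% and 0.473% higher.

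**Figure D2:**
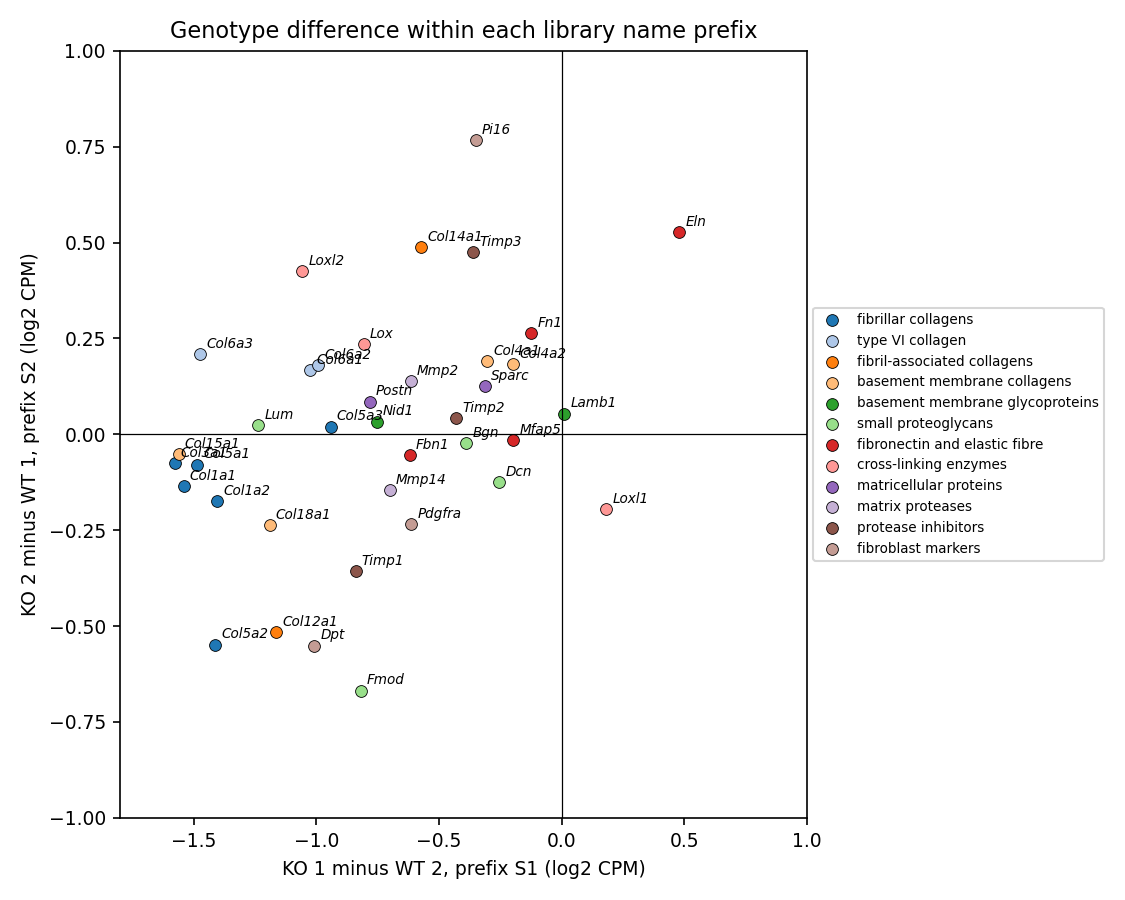
Each point is 1 matrix gene, with the log2 CPM difference of KO 1 minus WT 2 (prefix S1) on the horizontal axis and of KO 2 minus WT 1 (prefix S2) on the vertical axis, coloured by matrix class. Most points lie left of 0 and near 0 in height: 35 of 38 are negative within S1 and 18 of 38 within S2.

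In 13 of 38 members each KO library was below each WT library, where 13.1% of all genes showed this order, and above both for 0, where 13.2% of all genes did. The 13 were Col1a1, Col1a2, Col3a1, Col5a1, Col12a1, Col15a1, Col18a1, Dcn, Fmod, Fbn1, Mmp14, Pdgfra and Dpt. With the prefix as a block 3 members were called, all lower in KO, against 0.473% of all genes called lower in that fit, and 0 were called higher, against 1.57%. These were Col5a2, Col12a1 and Dpt, and the fit behind them has 1 residual degree of freedom. When a trend over transcript length was removed from each library in the same fit, an alternative chosen after seeing the data, 0 members were called.

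The fibrillar collagens showed the widest gap between KO 1 and WT 2 among the matrix classes. Type I collagen is the chief fibre protein of connective tissue and is a trimer of 2 chains from Col1a1 and 1 from Col1a2. Col1a1 (ENSMUSG00000001506, plus strand of chromosome 11, bases 94936224 to 94953042, GRCm38) was at 85.1 CPM (WT 1), 169.6 (WT 2), 58.2 (KO 1) and 77.5 (KO 2), so that WT 2 stood apart and the other 3 libraries lay between 58.2 and 85.1 CPM. The means were 67.8 ± 13.7 CPM for KO against 127 ± 59.7 for WT (SD, n = 2 each), and the log2 fold change was -0.91 (SE 0.36, edgeR adjusted p = 0.9998). It was -1.54 within S1 and -0.14 within S2, and ranged over -1.32 to -0.33 with 1 library left out each time, -0.33 without WT 2. With no filter on low counts, which raised all calls from 122 to 457, Col1a1 and Col5a2 passed (edgeR adjusted p = 0.0135 and 0.0315). Col1a2 (ENSMUSG00000029661, plus strand of chromosome 6, bases 4504814 to 4541544) followed the same order of libraries, at 115 CPM (WT 1), 196 (WT 2), 73.9 (KO 1) and 102 (KO 2). On the per-length scale the ratio of Col1a2 to Col1a1 TPM was 1.52, 1.32, 1.54 and 1.51 in WT 1, WT 2, KO 1 and KO 2, lowest in the library where both chains were most abundant.

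Col3a1, the fibrillar collagen of soft and elastic tissue, was the most abundant of the class, with a mean of 94.5 TPM over the 4 libraries. It was at 321 CPM (WT 1), 481 (WT 2), 161 (KO 1) and 305 (KO 2), again with KO 1 lowest, WT 2 highest and the S2 libraries side by side. Its log2 fold change was -0.78 (SE 0.37), made up of -1.58 within S1 and -0.07 within S2. The type V chains, which start fibrils and limit their width, did not share 1 order of libraries. Col5a1 was at 39.98 (WT 1), 52.5 (WT 2), 18.7 (KO 1) and 37.8 (KO 2) CPM and Col5a3 at 83.5 (WT 1), 86.7 (WT 2), 45.1 (KO 1) and 84.7 (KO 2) CPM, so that KO 1 alone stood low. Col5a2, which lies 24614 bases from Col3a1 on chromosome 1 and points toward it from the other strand, was at 79.2 CPM (WT 1), 53.1 (WT 2), 19.9 (KO 1) and 54.1 (KO 2), highest in WT 1 rather than WT 2. Its log2 fold change was -0.84 (SE 0.48) and ranged over -1.73 to -0.29 with 1 library left out. With the prefix as a block Col5a2 fell by 0.97 on the log2 scale (SE 0.20, edgeR adjusted p = 0.0373, and 0.114 with the length trend also removed).

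Promoter sequences are shown for 3 fibrillar genes that were lower together in KO 1 than in WT 2, to set out how unlike they are in base composition. They come from the RefSeq table of build GRCm38.p6, which held 25 of the 38 members. Each runs 5′ to 3′ on the plus strand, begins 250 bases before the RefSeq start and stops before the start of the full-length transcript in RefSeq or GENCODE, whichever lies further upstream; a shorter Col1a2 model of GENCODE starts upstream of the stretch shown. Capitals mark exact matches on either strand to the GC box GGGCGG, the CCAAT box or the TATA box TATAAA.
Col1a2, chr6:4505368-4505492: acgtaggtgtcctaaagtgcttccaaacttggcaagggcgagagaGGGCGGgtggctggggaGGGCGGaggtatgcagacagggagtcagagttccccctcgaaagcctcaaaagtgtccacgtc
Col3a1, chr1:45311288-45311537: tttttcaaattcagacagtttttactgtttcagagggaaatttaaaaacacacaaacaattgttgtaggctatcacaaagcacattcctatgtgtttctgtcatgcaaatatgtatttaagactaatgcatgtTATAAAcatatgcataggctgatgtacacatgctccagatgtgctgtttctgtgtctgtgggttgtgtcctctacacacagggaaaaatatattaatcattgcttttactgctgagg
Col5a1, chr2:27886175-27886424: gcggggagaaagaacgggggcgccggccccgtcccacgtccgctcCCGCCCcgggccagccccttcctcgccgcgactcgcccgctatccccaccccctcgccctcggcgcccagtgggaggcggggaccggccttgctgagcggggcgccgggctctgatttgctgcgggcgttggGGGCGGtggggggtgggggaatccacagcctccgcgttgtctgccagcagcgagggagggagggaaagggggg

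The G and C share of these stretches was 59.2% in Col1a2, 35.2% in Col3a1 and 76.4% in Col5a1. Col1a2 and Col5a1 each held 2 GC boxes and no TATA box, and Col3a1 held a TATA box 117 to 112 bases before its RefSeq start and no GC box. Over the 300-base windows (250 bases before to 50 after the start) of the 25 members found, the GC box was present in 14 (56%, against 35.7% of all 32851 windows) and the CCAAT box in 11 (44%, against 37.4%). TATAAA was present in 3 (12%, against 13.6%), CAGAC, a SMAD element, in 12 (48%, against 49.6%) and TGANTCA, an AP-1 site, in 1 (4%, against 7.81%). TGATGNAA, the core of the ATF4 response element, was found in 1 window, that of Pi16 (4%, against 3.97%), with both strands searched for each motif. No motif contains another, and a match describes the letters alone. The 25 windows had a median G and C share of 59.7%, against 52.7% over all 32851, and its part in the counts was not tested. The RefSeq starts used for Pdgfra and Fbn1 lay 3648 and 1555 bases from the start of the longest coding transcript in GENCODE.

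Fibril-associated and type VI collagens link fibrils to each other and to cells. Col12a1, which binds the surface of type I fibrils, was at 27.2 CPM (WT 1), 22.3 (WT 2), 9.93 (KO 1) and 19.02 (KO 2), with both KO libraries below both WT libraries. The means were 14.5 ± 6.43 CPM for KO against 24.8 ± 3.46 for WT (SD, n = 2 each) and the log2 fold change -0.77 (SE 0.32), -1.17 within S1 and -0.52 within S2. Leaving out each library in turn gave -1.32 to -0.38, with -0.38 without KO 1. In the fit blocked by prefix Col12a1 fell by 0.83 (SE 0.18, edgeR adjusted p = 0.0427, and 0.133 with the length trend also removed). Col14a1, its relative, was far lower at 4.11 (WT 1), 5.09 (WT 2), 3.3997 (KO 1) and 5.79 (KO 2) CPM, with overlapping groups and opposite differences within the prefixes (-0.57 and 0.49). The 3 chains of type VI collagen, a beaded filament around adipocytes that is known to limit their expansion, had 1 order of libraries in common. Col6a1 was at 75.8 (WT 1), 123 (WT 2), 60.5 (KO 1) and 85.1 (KO 2) CPM, Col6a2, its neighbour 85161 bases away on chromosome 10, at 69.4, 103, 51.9 and 78.6 CPM in the same order, and Col6a3 at 68.2, 132, 47.3 and 78.9 CPM. All 3 chains had KO 1 lowest and WT 2 highest, with KO 2 slightly above WT 1. Their log2 fold changes were -0.45 (SE 0.30), -0.40 (SE 0.29) and -0.66 (SE 0.39), and within S2 the differences were 0.17, 0.18 and 0.21.

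Type IV collagen, the sheet-forming collagen of every basement membrane, differed little between the libraries. Col4a1 (ENSMUSG00000031502, minus strand of chromosome 8, bases 11198423 to 11312826) was at 515 CPM (WT 1), 652 (WT 2), 528 (KO 1) and 588 (KO 2), and Col4a2 at 393 CPM (WT 1), 459 (WT 2), 399.8 (KO 1) and 446 (KO 2). The groups overlapped for both, and the log2 fold changes were -0.06 (SE 0.23) and -0.01 (SE 0.21), with either sign when 1 library was left out. The 2 genes stand head to head on chromosome 8, with annotated 5′ ends that overlap by 22 bases on opposite strands. On the scale of TPM summed per gene the ratio of Col4a1 to Col4a2 was 1.77, 2.00, 1.93 and 1.68 in WT 1, WT 2, KO 1 and KO 2. Other models entered the Col4a1 sum, of which its longest coding model held 48.6% (WT 1) to 57.9% (WT 2). That model alone was at 55.9, 94.2, 58.5 and 73.8 TPM in the same order of libraries. The longest coding model of Col4a2 was at 59.9, 75.5, 55.4 and 69.4 TPM, above that of Col4a1 in WT 1. The ratio of Col1a1 to Col4a2 TPM was 0.223 (WT 1), 0.377 (WT 2), 0.159 (KO 1) and 0.169 (KO 2), below both WT values in both KO libraries. The other basement membrane collagens, both of which release antiangiogenic fragments, were unlike type IV. Col15a1 was at 51.01 (WT 1), 67.8 (WT 2), 22.9 (KO 1) and 49.2 (KO 2) CPM and Col18a1 at 41.4 (WT 1), 35.6 (WT 2), 15.6 (KO 1) and 35.1 (KO 2) CPM, and KO 1 held the lowest value of both by a wide margin. Their log2 fold changes were -0.72 (SE 0.38) and -0.60 (SE 0.38), with -0.05 and -0.24 within S2. Of the glycoproteins, Nid1 (nidogen, which bridges laminin and type IV collagen) was at 111 (WT 1), 123 (WT 2), 73.1 (KO 1) and 114 (KO 2) CPM, low in KO 1 alone. Lamb1, a laminin chain, was at 54.6 (WT 1), 73.1 (WT 2), 73.7 (KO 1) and 56.7 (KO 2) CPM, and here the libraries split by prefix, with both S1 libraries above both S2 libraries.

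The small proteoglycans, which bind collagen fibrils and set their spacing, had 4 negative fold changes out of 4 and a median of -0.37. Dcn (decorin) had the narrowest range of the 4, at 91.4 CPM (WT 1), 94.2 (WT 2), 78.9 (KO 1) and 83.9 (KO 2), with both KO libraries below both WT libraries by a small step. Its log2 fold change was -0.19 (SE 0.17), and it stayed within -0.24 to -0.15 with 1 library left out. Lum (lumican), which lies 46984 bases from Dcn on chromosome 10, was at 12.7 (WT 1), 15.03 (WT 2), 6.33 (KO 1) and 12.9 (KO 2) CPM, again low in KO 1 alone. Bgn (biglycan) was at 88.3 (WT 1), 120.2 (WT 2), 91.8 (KO 1) and 86.9 (KO 2) CPM, where WT 2 alone was high. Fmod (fibromodulin) was near the limit of useful counts, at 2.33 (WT 1), 1.497 (WT 2), 0.821 (KO 1) and 1.44 (KO 2) CPM, with a log2 fold change of -0.75 (SE 0.44), -0.82 within S1 and -0.67 within S2.

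**Figure D3:**
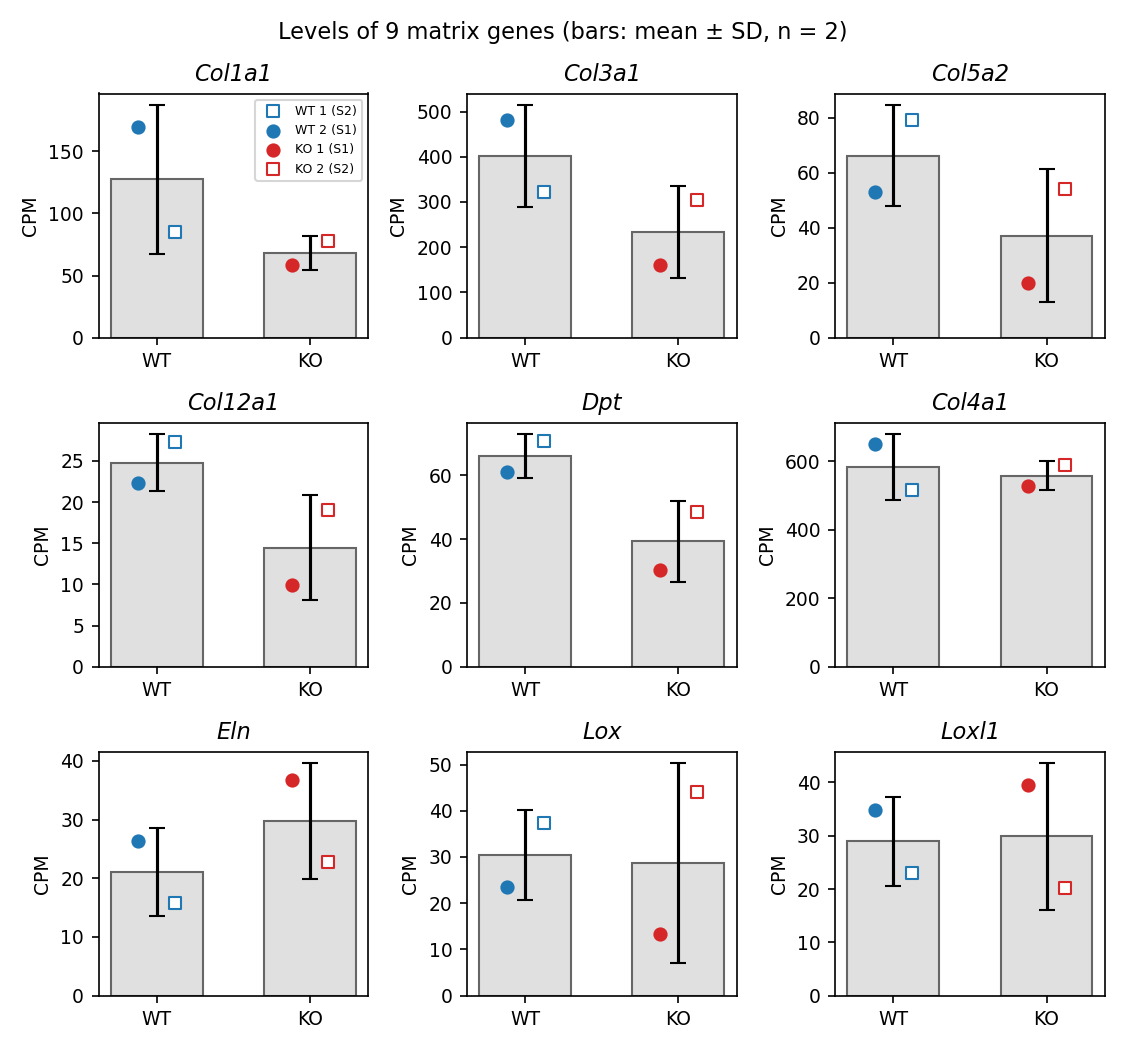
CPM of 9 matrix genes, with bars for the group mean, error bars for the SD (n = 2) and symbols for the single libraries (blue WT, red KO, filled circles S1, open squares S2). For Col1a1, Col3a1, Col12a1 and Dpt both KO libraries sit below both WT libraries. Col4a1 lies between 515 and 652 CPM in every library, and Eln, Lox and Loxl1 are ordered by prefix.

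The 4 genes of fibronectin and the elastic fibre had a median log2 fold change of -0.02, and 3 of 4 were lower in KO 1 than in WT 2. Fn1 (fibronectin), on which collagen fibrils are assembled, was at 28.5 (WT 1), 35.2 (WT 2), 32.3 (KO 1) and 34.3 (KO 2) CPM, with a log2 fold change of 0.06 (SE 0.18). Fbn1 (fibrillin), the microfibril scaffold of elastin, was at 22.5 (WT 1), 29.5 (WT 2), 19.2 (KO 1) and 21.7 (KO 2) CPM, and Mfap5, a microfibril protein of fibroblasts, at 5.19 (WT 1), 4.36 (WT 2), 3.79 (KO 1) and 5.14 (KO 2) CPM. Both were lowest in KO 1, and Fbn1 had the same order of libraries as Col1a1. Their log2 fold changes were -0.35 (SE 0.20) and -0.09 (SE 0.27). Eln, which encodes elastin, had the opposite sign to most collagens, at 15.8 CPM (WT 1), 26.3 (WT 2), 36.7 (KO 1) and 22.8 (KO 2). It was highest in KO 1, the library where most collagens were lowest, and its log2 fold change was 0.50 (SE 0.34), with 0.48 within S1 and 0.53 within S2 (edgeR adjusted p = 0.184 with the prefix as a block). Among the mural markers, Myh11 at 22.5 (WT 1), 32.4 (WT 2), 54.3 (KO 1) and 24.8 (KO 2) CPM and Tagln at 12.6 (WT 1), 15.1 (WT 2), 37.98 (KO 1) and 14.6 (KO 2) CPM, chosen after their values were seen, had the same order of libraries as Eln. Over all 8 mural markers the median difference within S1 was 0.11 (range -0.33 to 1.33), and 2 of 8 were lower in KO 1 than in WT 2. Their sums were 695, 739, 788 and 725 CPM in WT 1, WT 2, KO 1 and KO 2, and their part in the Eln values was not tested.

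Of the 3 lysyl oxidases, copper enzymes that cross-link collagen and elastin, Lox and Loxl1 differed by library prefix. Lox was at 37.3 CPM (WT 1), 23.6 (WT 2), 13.4 (KO 1) and 43.98 (KO 2), so that both S2 libraries were above both S1 libraries. Loxl1, the paralog tied to elastic fibres, had the reverse order, at 23.1 CPM (WT 1), 34.9 (WT 2), 39.6 (KO 1) and 20.2 (KO 2). In the fit with genotype and prefix, Lox was higher in S2 by 1.17 on the log2 scale (SE 0.22, edgeR adjusted p = 0.0241) and Loxl1 lower, with -0.78 (SE 0.16, adjusted p = 0.0299). On the TPM scale the ratio of Lox to Loxl1 was 1.14 and 1.56 in the S2 libraries (WT 1 and KO 2) and 0.478 and 0.240 in the S1 libraries (WT 2 and KO 1). Loxl2, which acts on basement membranes, was at 10.4 (WT 1), 17.8 (WT 2), 8.52 (KO 1) and 14.02 (KO 2) CPM and had no such split. In all, 2 members were higher in S2 (Lox and Col5a2, at 1.00, adjusted p = 0.0302), where 1.59% of all genes were, and 2 were lower (Loxl1 and Eln, at -0.71, adjusted p = 0.0315), where 1.55% of all genes were. The S2 libraries were both above both S1 libraries for 5 members and both below for 5, against 27.3% and 25.9% of all genes.

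Among the matricellular proteins and the enzymes of turnover 0 genes passed the test. Sparc, which chaperones collagen in the matrix, was the most abundant member with a mean of 512 TPM and stood at 1055 (WT 1), 1092 (WT 2), 879 (KO 1) and 1151 (KO 2) CPM. Its log2 fold change was -0.08 (SE 0.24) and turned to 0.10 without KO 1. Postn (periostin), a partner of collagen in fibrotic tissue, was at 75.4 (WT 1), 105 (WT 2), 60.998 (KO 1) and 80.03 (KO 2) CPM, in the order seen for the type VI chains. Mmp2, a gelatinase, was at 19.4 (WT 1), 21.6 (WT 2), 14.1 (KO 1) and 21.4 (KO 2) CPM, and Mmp14, the membrane collagenase that activates it, at 8.76 (WT 1), 10.2 (WT 2), 6.25 (KO 1) and 7.92 (KO 2) CPM. Both enzymes had their lowest value in KO 1, and their log2 fold changes were -0.21 (SE 0.24) and -0.42 (SE 0.21). Of the inhibitors of these proteases, Timp3, which stays bound to the matrix, was the most abundant at 194 (WT 1), 239.7 (WT 2), 187 (KO 1) and 269.5 (KO 2) CPM, and Timp2 was at 34.9 (WT 1), 31.8 (WT 2), 23.6 (KO 1) and 35.9 (KO 2) CPM. Timp1, the inducible form, was low in every library, at 0.765 (WT 1), 1.66 (WT 2), 0.899 (KO 1) and 0.583 (KO 2) CPM, with -0.72 (SE 0.53) on the log2 scale. None of the 3 inhibitors had groups that did not overlap.

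The fibroblast markers differed from each other. Pdgfra, the receptor that defines adipose fibroblasts and progenitors, was at 12.4 CPM (WT 1), 15.9 (WT 2), 10.4 (KO 1) and 10.6 (KO 2), with the KO libraries nearly equal and below both WT libraries. Its log2 fold change was -0.44 (SE 0.19), and -0.60 to -0.25 with 1 library left out. Dpt (dermatopontin, ENSMUSG00000026574, plus strand of chromosome 1, bases 164796644 to 164824266), a collagen-binding protein of universal fibroblasts, was at 70.95 CPM (WT 1), 61.2 (WT 2), 30.4 (KO 1) and 48.4 (KO 2). The groups did not overlap, the means were 39.4 ± 12.8 CPM for KO against 66.1 ± 6.88 for WT (SD, n = 2 each), and the log2 fold change was -0.75 (SE 0.26, unadjusted p = 0.0313 by the edgeR test). With 1 library left out it ranged over -1.12 to -0.45, with -0.45 without KO 1. It was -1.01 within S1 and -0.55 within S2, and with the prefix as a block Dpt fell by 0.78 (SE 0.17, edgeR adjusted p = 0.0404, and 0.0871 with the length trend also removed). Pi16, a marker of the reservoir fibroblasts around vessels, went the other way within S2, at 5.51 CPM (WT 1), 4.002 (WT 2), 3.13 (KO 1) and 9.43 (KO 2), where KO 2 alone was high. Further fibroblast and progenitor markers gave 8 negative log2 fold changes among 10 measured, where 7767 of all 15643 tested genes were negative. Their median was -0.20 (range -0.75 to 0.44), with 0 calls. Their list summed to 850, 969, 707 and 773 CPM in WT 1, WT 2, KO 1 and KO 2. The genotypes did not overlap for 4 of the 10, with KO the lower in each, where 13.1% of all genes showed this order. The median was -0.28 within S1 and 0.07 within S2, where 4 of 10 were lower in KO 2 than in WT 1. From this list, Cd34 was at 34.9 (WT 1), 31.4 (WT 2), 34.4 (KO 1) and 35.9 (KO 2) CPM. Pdgfrb was at 45.8 (WT 1), 62.9 (WT 2), 58.03 (KO 1) and 49.3 (KO 2) CPM. Thy1 was at 6.56 (WT 1), 6.81 (WT 2), 5.16 (KO 1) and 5.69 (KO 2) CPM. The groups overlapped for Cd34 and Pdgfrb and not for Thy1, and Tcf21 was not above 0.0272 CPM in any library.

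On the per-length scale the members covered a wide range, and their order did not follow matrix class. Sparc led, followed by Col4a1 (129 TPM), Col3a1 (94.5), Col4a2 (70.1) and Dcn (53.8) as means over the 4 libraries. Col4a1 was above Col3a1 in each of the 4 libraries, at 115 against 95.2 TPM in WT 1, 163 against 149.7 in WT 2, 107 against 48.4 in KO 1 and 132 against 84.7 in KO 2. By TPM summed per gene, Col3a1 and Col4a2 changed places, with Col3a1 higher in WT 1, WT 2 and KO 2 and lower in KO 1. That order depended on short models in the sums. The longest coding model of Col3a1 alone was at 53.9 (WT 1), 87.2 (WT 2), 23.5 (KO 1) and 53.0 (KO 2) TPM. That of Col4a2 was at 59.9, 75.5, 55.4 and 69.4 TPM in the same libraries, below Col3a1 in WT 2 alone. At the low end stood Pdgfra (1.93 TPM), Timp1 (1.49), Col14a1 (1.15) and Fmod (0.506), with Pdgfra above Fmod in every library.

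Other genes of matrix assembly gave 0 calls among 94 measured of 105 listed, with 5 at an unadjusted p under 0.05 (5 of 94, where 4.02% of all genes were) and a median log2 fold change of -0.15 (-0.36 within S1 and 0.03 within S2). The 19 measured genes of collagen folding and modification, mostly enzymes of the endoplasmic reticulum, had a median of -0.09, beside that of the fibrillar collagens at -0.80. The smallest p in that list belonged to Plod2, a lysyl hydroxylase, at 3.41 (WT 1), 4.22 (WT 2), 3.95 (KO 1) and 8.398 (KO 2) CPM, and Creb3l1, a transcription factor of collagen genes, at 3.505 (WT 1), 4.52 (WT 2), 2.15 (KO 1) and 3.29 (KO 2) CPM. Collagen receptors and uptake genes were negative in 10 of 10, with a median of -0.31, where 7767 of all 15643 tested genes were negative. Their median was -0.56 within S1 and -0.06 within S2, and 6 of 10 were lower in KO within S2. Among them the collagen receptor Ddr2 was at 18.4 (WT 1), 24.4 (WT 2), 14.9 (KO 1) and 17.4 (KO 2) CPM and Mrc2, which takes collagen fragments into cells, at 14.1 (WT 1), 18.4 (WT 2), 10.9 (KO 1) and 12.5 (KO 2) CPM, with no overlap of genotypes for either. Of the 7 procollagen processing genes, Adamts2, which removes the amino-terminal propeptide, was at 15.2 (WT 1), 18.7 (WT 2), 9.34 (KO 1) and 14.6 (KO 2) CPM, and Pcolce2, an enhancer of the carboxy-terminal protease, at 4.24 (WT 1), 4.14 (WT 2), 3.01 (KO 1) and 3.22 (KO 2) CPM. Neither passed the test.

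With the prefix as a block, 3 of the 94 were called lower in KO, where 0.473% of all genes were, and 0 higher, where 1.57% were. Adamts5, a secreted protease that cuts the proteoglycan versican, was at 27.9 (WT 1), 26.3 (WT 2), 16.6 (KO 1) and 11.4 (KO 2) CPM and fell by 0.98 on the log2 scale (SE 0.18, edgeR adjusted p = 0.0152). Adamts1, its relative, was at 41.8 (WT 1), 44.6 (WT 2), 26.2 (KO 1) and 26.2 (KO 2) CPM and fell by 0.72 (SE 0.15, adjusted p = 0.03496). Lama4, the laminin chain of adipocyte and capillary basement membranes, was at 96.9 (WT 1), 104 (WT 2), 67.1 (KO 1) and 57.96 (KO 2) CPM and fell by 0.69 (SE 0.15, adjusted p = 0.0471). All 3 were lower in KO within each prefix, with -0.66 and -1.29 for Adamts5, -0.76 and -0.68 for Adamts1 and -0.63 and -0.74 for Lama4, where the fibrillar collagens had medians of -1.45 and -0.11. In the fit without a block their adjusted p values were 0.369, 0.319 and 0.543. The remaining named genes of these lists did not pass in either fit. Vcan (versican) was at 1.47 (WT 1), 3.403 (WT 2), 1.25 (KO 1) and 1.47 (KO 2) CPM and Ogn, a small proteoglycan, at 9.75 (WT 1), 9.36 (WT 2), 6.76 (KO 1) and 7.85 (KO 2) CPM. Efemp1, a fibulin, was at 12.999 (WT 1), 12.4 (WT 2), 6.76 (KO 1) and 9.29 (KO 2) CPM and Emilin2, an elastic fibre glycoprotein, at 5.098 (WT 1), 6.697 (WT 2), 2.77 (KO 1) and 5.38 (KO 2) CPM. Col8a1, a network collagen, was at 10.3 (WT 1), 10.1 (WT 2), 8.56 (KO 1) and 4.76 (KO 2) CPM, Col4a4, a minor type IV chain, at 1.78 (WT 1), 2.29 (WT 2), 1.41 (KO 1) and 1.23 (KO 2) CPM and Lamc3, a laminin chain, at 13.4 (WT 1), 15.98 (WT 2), 8.48 (KO 1) and 12.3 (KO 2) CPM.

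KO 1, the library with the lowest matrix levels, also differed from the other 3 in how reads lay along transcripts. Genes were taken whose longest coding transcript had at least 4000 bases and a mean above 1 TPM. Annotated models of under 2000 bases and a mean above 0.3 TPM were set against that transcript. They counted where an end lay within 200 bases of its own. At the 3′ end there were 115 such models in 95 genes. Their median log2 ratio of short over full-length TPM was -0.10 (WT 1), 0.10 (WT 2), 1.00 (KO 1) and -0.28 (KO 2). For 444 short models at the 5′ end, in 321 genes, the medians were -1.62, -1.69, -2.11 and -1.63. Within the members, the 3′ model of Col15a1 had ratios of -0.56, -0.87, 0.46 and -0.50 in WT 1, WT 2, KO 1 and KO 2, and that of Col12a1 0.72, 1.21, 1.65 and 1.32. A 5′ model of Col12a1 had ratios of -0.51, -1.41, -0.19 and -4.65. KO 1 was thus highest for both 3′ models of members and in the 3′ median. It was lowest in the 5′ median over the genes with such models, but highest for the 5′ model of Col12a1. The difference between KO 1 and WT 2 also fell with transcript length, from a median of 0.29 over 656 genes of up to 1000 bases to -0.18 over 801 genes of over 8000 bases, while the medians of KO 2 minus WT 1 were -0.10 and -0.04 in these classes and highest, at 0.03, over 2903 genes of 4000 to 6000 bases.

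**Figure D4:**
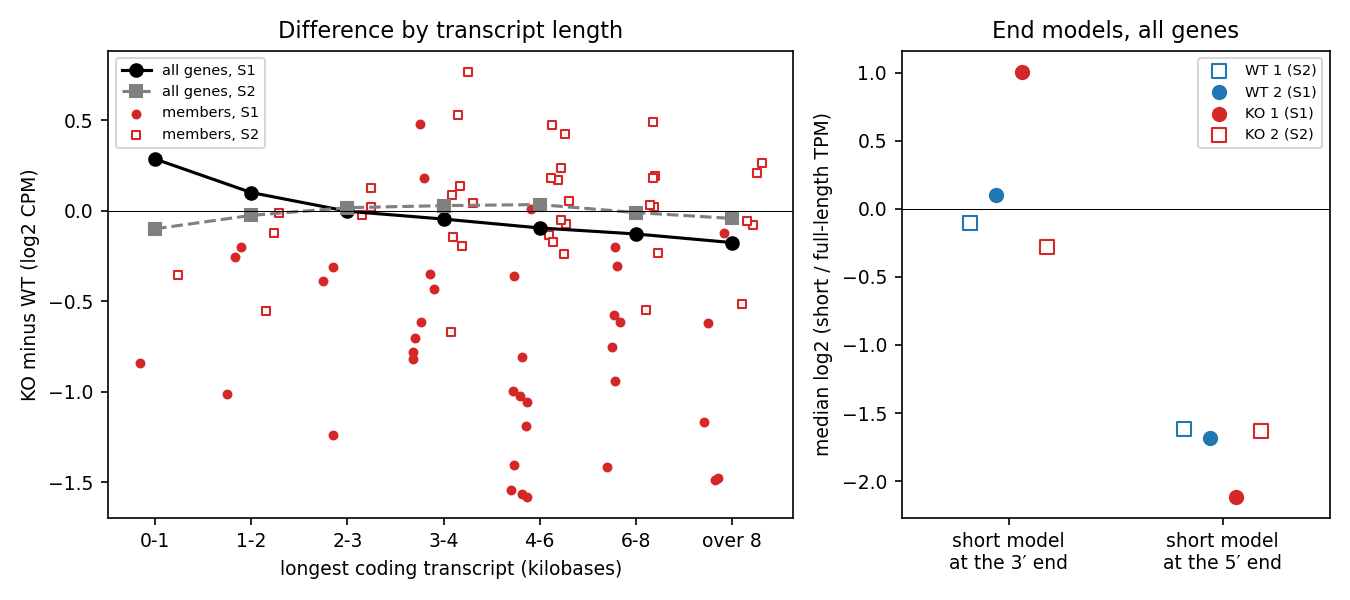
Left, log2 CPM differences of KO minus WT by length of the longest coding transcript, as medians of all genes (black circles for prefix S1, grey squares for S2) and as single members (red dots for S1, open red squares for S2); right, the median log2 ratio of short to full-length transcript TPM in each library, for short models at the 3′ and at the 5′ end. The members lie below the medians of all genes in S1 in most length classes, and KO 1 has the highest 3′ value, 1.00, and the lowest 5′ value, -2.11.

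Most members are long transcripts. The 23 members over 4000 bases had a median within-S1 difference of -0.99, beside -0.11 for all 4843 tested genes of that length, and the 15 members of up to 4000 bases had -0.43, beside 0.03 for all 8850 such genes. Within S2 the medians were 0.03 and -0.01 for the long and the shorter members. With the length trend removed from each library, also chosen after seeing the data, the members' median log2 fold change was -0.32, against -0.35 without that step, and 0 members passed.

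Markers of other cells moved with the libraries as well. The 10 macrophage markers summed to 396, 293, 111 and 323 CPM in WT 1, WT 2, KO 1 and KO 2, and 0 of 10 passed the edgeR genotype test. All 10 were lower in KO 1 than in WT 2 (50.8% of all genes were), with a median of -1.53. Within S2, 8 of 10 were lower in KO 2 than in WT 1 (50.3% of all genes), with a median of -0.12. In the fit with genotype and prefix, 5 of 10 were called higher in S2 and 0 lower, against 1.59% and 1.55% of all genes. The 8 endothelial markers summed to 799, 1093, 1437 and 935, highest in KO 1, and 0 of 8 passed. Mesothelial markers summed to 0.701 to 1.64 CPM, with Upk3b at 0 counts in all 4 libraries, and lymphocyte markers to 2.19 to 7.503 CPM. The brown adipocyte markers summed to 14694, 15648, 17416 and 14140.2 CPM. The part of these cells, and of the read distribution of KO 1, in the matrix values was not tested.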

How the data were processed

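Messenger RNA of 4 brown adipose tissue libraries (2 KO, 2 WT) was extracted with TRIzol and RNeasy and prepared with a stranded TruSeq kit, per the labels' protocols. The authors used kallisto 0.45.0 with build mm10, per the submitters' processing notes; the sources used here do not give the transcript set or strand setting. The authors deposited estimated counts and TPM for 141450 transcripts, per the file headers, with transcript lengths in bases. Because kallisto splits shared reads between transcripts, near-identical genes and short models are uncertain. In all, 138191 transcripts (97.7%) matched GENCODE vM21 (GRCm38). The unmatched ones held 0.992 to 1.04% of counts and stayed out. For each gene the transcripts' estimated counts were added up and rounded; TPM was summed per gene for levels, ratios and 1 alternative.

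The main test was edgeR 4.0.16 (R 4.3.3), quasi-likelihood, TMM scaling, genotype as the sole term, a filterByExpr filter (at least 10 counts, total at least 15), with Benjamini-Hochberg adjustment over 15643 genes and a threshold of 0.05. An SE is the log2 change divided by the root of its F. Within-prefix differences are log2 CPM with a prior count of 2. The script was tested on simulated data. Alternatives are in the closing section, with DESeq2 1.42.0 and limma 3.58.1. The members, matrix lists and marker lists were chosen with earlier results of these data known. Named genes were Atf4, all members and, from each pathway list, the 2 with the smallest p; among cell markers, those named were chosen after their values were seen. The result of 1 marker list is not reported here.

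Replicate numbers are shared between the groups. Deviations from the group means of same-numbered libraries correlated at -0.38 over all genes, and those of libraries with the same name prefix at 0.38. With n = 2 in each group the second value is the first with its sign changed and adds no information.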

Additional observations from a re-analysis of the deposited data

How the results depend on the processing

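With edgeR's genotype fit as reported, 0 members and 122 of all genes passed. The members passing numbered 2 with no filter (Col1a1 and Col5a2), 3 with the library name prefix as a block, and 0 in each other fit. The count over all genes became 457 with no filter, 320 with the prefix as a block, 218 with DESeq2 and 241 with the length trend removed and the prefix as a block, and 78 (without KO 2) to 205 (without WT 2) with 1 library left out. DESeq2 size factors, a minimum of 1 CPM in 2 libraries, limma-voom, limma on log2(TPM + 1), leaving out skeletal muscle or mitochondrial genes, removing the length trend alone, and a threshold of 0.1 kept it within 1.5 times. Both removals of the length trend were chosen after seeing the data. With 1 library left out the lone library of a genotype is assumed to vary like the other pair, and the members' median log2 fold change ran from -0.60 to -0.15. The members passing by prefix were 4, and 7 with no filter, a fit whose count over all genes is not given here. The cause of these differences was not tested.

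With the replicate number as a block, 0 members and 164 genes passed, and the members' median was -0.35. Same-numbered libraries deviated in opposite directions, and the crossed pairing, which is the prefix block, called 3 members and 320 genes.

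Of single members' values under the alternatives, 564 kept their direction and side of the threshold, 38 changed sign and 5 passed that had not; 23 of 38 members kept 1 sign in every alternative. On the log2 scale, Col14a1 turned from 0.0003 to -0.039 with the replicate block, -0.034 with the prefix block, -0.034 with limma-voom, -0.043 on TPM and -0.0027 without mitochondrial genes. Loxl1 turned to -0.0056 with the replicate block, -0.0024 with the prefix block, -0.0078 with limma-voom and -0.10 on TPM. On TPM, Lamb1 was at -0.0081, Fn1 at -0.073 and Timp3 at -0.055. With the length trend removed, Col4a2 was at 0.052, and with the prefix block too Col4a2 was at 0.056 and Col4a1 at 0.0096. With 1 library left out, fold changes of either sign were found for Col14a1 (-0.44 to 0.33), Col4a1 (-0.22 to 0.11), Col4a2 (-0.12 to 0.11), Lamb1 (-0.17 to 0.26), Bgn (-0.43 to 0.016), Fn1 (-0.081 to 0.22), Mfap5 (-0.33 to 0.11), Lox (-1.18 to 0.53), Loxl1 (-0.52 to 0.45), Loxl2 (-0.73 to 0.11), Sparc (-0.29 to 0.10), Mmp2 (-0.55 to 0.059), Timp2 (-0.50 to 0.11), Timp3 (-0.22 to 0.31) and Pi16 (-0.60 to 0.99). Depth was lowest for Fmod and Timp1, with as few as 21 and 17 counts in a library.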
